A study of Mus musculus with 20 samples.

Results

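The type I interferon-stimulated genes described here are 39 genes chosen by symbol, from Isg15, the IFIT, OAS and MX families to the immunity-related GTPases, in a count table of 24054 genes from mouse lung. All 39 were in the table and all 39 had enough counts to be among the 16193 genes tested. RNA sequencing was done on whole lung of female C57Bl6 mice in 20 libraries, which form 4 groups of 5 biological replicates. KO-HDM mice are labelled ALOX15 KO and were given house dust mite extract (HDM) into the nose each day for 14 days, and KO-PBS mice carry the same label and were given saline. WT-HDM and WT-PBS mice are labelled Wild Type and were given dust mite extract and saline. House dust mite is an inhaled allergen used to cause allergic airway inflammation in mice, and the product of Alox15 adds oxygen to polyunsaturated fatty acids. The labels used here do not give the age of the mice, how the knockout allele was made or whether mice of a group shared a cage or a day, so the p-values measure the spread between these libraries only. The series text names the comparison of dust mite challenged wild-type and knockout lungs as its purpose.

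Type I interferons are cytokines that nearly all cells can make on sensing foreign nucleic acid, and they act through the receptor chains Ifnar1 and Ifnar2. The receptor activates a complex that holds Stat2 and Irf9 and binds the interferon-stimulated response element in promoters. Type II interferon (Ifng), made mainly by lymphocytes, acts through the gamma-activated site, and many of the genes below respond to both kinds of interferon. In the lung these genes are best known from infection with respiratory viruses.

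Promoters of the members were searched for the interferon-stimulated response element and the gamma-activated site. RefSeq promoters of mouse build GRCm38.p6, from 250 bases before to 50 bases after a start, were matched for 29 of the 39 members. The core of the interferon-stimulated response element, searched as GAAA, any 2 bases and GAAA on both strands, stood in a promoter of 15 of those 29 members (51.7%), against 3.99% of 27025 genes with a promoter in the same source. The gamma-activated site, searched as TTCNNNGAA, which reads the same on both strands, stood in 8 of 29 members (27.6%) and in 9.55% of those genes. A match describes the letters in this window and does not show that a factor binds there. The stretches that follow are printed 5′ to 3′ on the strand of the gene because they belong to the 4 members with the largest change in any comparison among those with the core. Capitals mark a match to a motif: the response element core on either strand, and in Igtp first the gamma-activated site and then the core. They lie at chr12:26456528-26456607 for Rsad2 (minus strand), chr5:120887614-120887666 for Oas1g (minus strand), chr5:120907526-120907580 for Oas1a (minus strand) and chr11:58199487-58199555 for Igtp (plus strand).
Rsad2: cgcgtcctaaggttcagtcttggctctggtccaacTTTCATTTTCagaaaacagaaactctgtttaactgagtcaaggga
Oas1g: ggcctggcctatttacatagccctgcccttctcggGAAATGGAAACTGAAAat
Oas1a: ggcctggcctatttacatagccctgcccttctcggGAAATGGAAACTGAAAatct
Igtp: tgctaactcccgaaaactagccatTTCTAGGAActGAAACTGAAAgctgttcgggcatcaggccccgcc
The Oas1a and Oas1g stretches were identical over their first 53 bases and hold overlapping copies of the core just before the start. In Rsad2 the match lies on the opposite strand. Of the members whose levels are given most fully below, Ube2l6, Isg20, Cmpk2, Herc6 and Ifit2 had no core in their window, and Isg20 and Ifit2 had a gamma-activated site. No promoter was matched for Iigp1, Zbp1, Mx1, Mx2, Dhx58, Oas2, Usp18, Parp9, Parp14 and Rtp4, so their motifs are not known here.

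Total expected counts per library ran from 12573113 in WT-HDM 3 to 23305673 in KO-PBS 3. All KO-PBS libraries (21120878 or more) were deeper than all WT-HDM libraries (20662632 or fewer). The ribosomal RNA gene Rn45s took 2.72% to 6.08% of counts in WT-HDM and 1.82% to 2.98% in KO-HDM. With saline it took 1.47% to 3.47% in WT-PBS and 1.21% to 2.26% in KO-PBS. The part of depth and ribosomal RNA in the label differences was not tested. Levels are given as counts per 1000000 reads (CPM) after scaling, so that 1 CPM is more than 10 counts in each library. Alox15 itself averaged 41.1 ± 4.07 CPM in KO-HDM and 40.8 ± 2.45 CPM in KO-PBS, against 18.6 ± 8.53 CPM in WT-HDM and 4.58 ± 4.00 CPM in WT-PBS (SD, n = 5 each). It was thus higher in the libraries labelled ALOX15 KO, and every difference between KO and WT below is one between labels. No library overlapped between the labels under either treatment. By edgeR's test the log2 fold change was called with saline (3.15 ± 0.45 SE, adjusted p = 0.000583) and not with dust mite (1.15 ± 0.41, adjusted p = 0.107). Dust mite raised it under the Wild Type label (2.01 ± 0.44, adjusted p = 0.00241) and was not called under the KO label (0.01 ± 0.40). Markers of alveolar, club, ciliated and endothelial cells were found in all libraries. Adipoq, a gene of fat cells, reached 50 CPM or more in 5 libraries (KO-HDM 5, WT-HDM 2 and 4, WT-PBS 2 and 4), and results are also given without them. Summed over 4 genes, liver markers reached 26.95 to 96.2 CPM in KO-HDM and no more than 1.10 CPM in any other library. Skeletal muscle markers, 3 genes, summed to 1906 CPM in WT-HDM 2, the highest WT-HDM library for 19 of 39 members, and to at most 47.7 CPM in any other. The part of fat and muscle in the results below was not tested, except by leaving out the libraries with Adipoq, WT-HDM 2 among them. The part of liver was not tested at all. Its markers were found in every KO-HDM library, of which that alternative leaves out KO-HDM 5 only, so they cannot be told apart from that group.

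**Figure D1:**
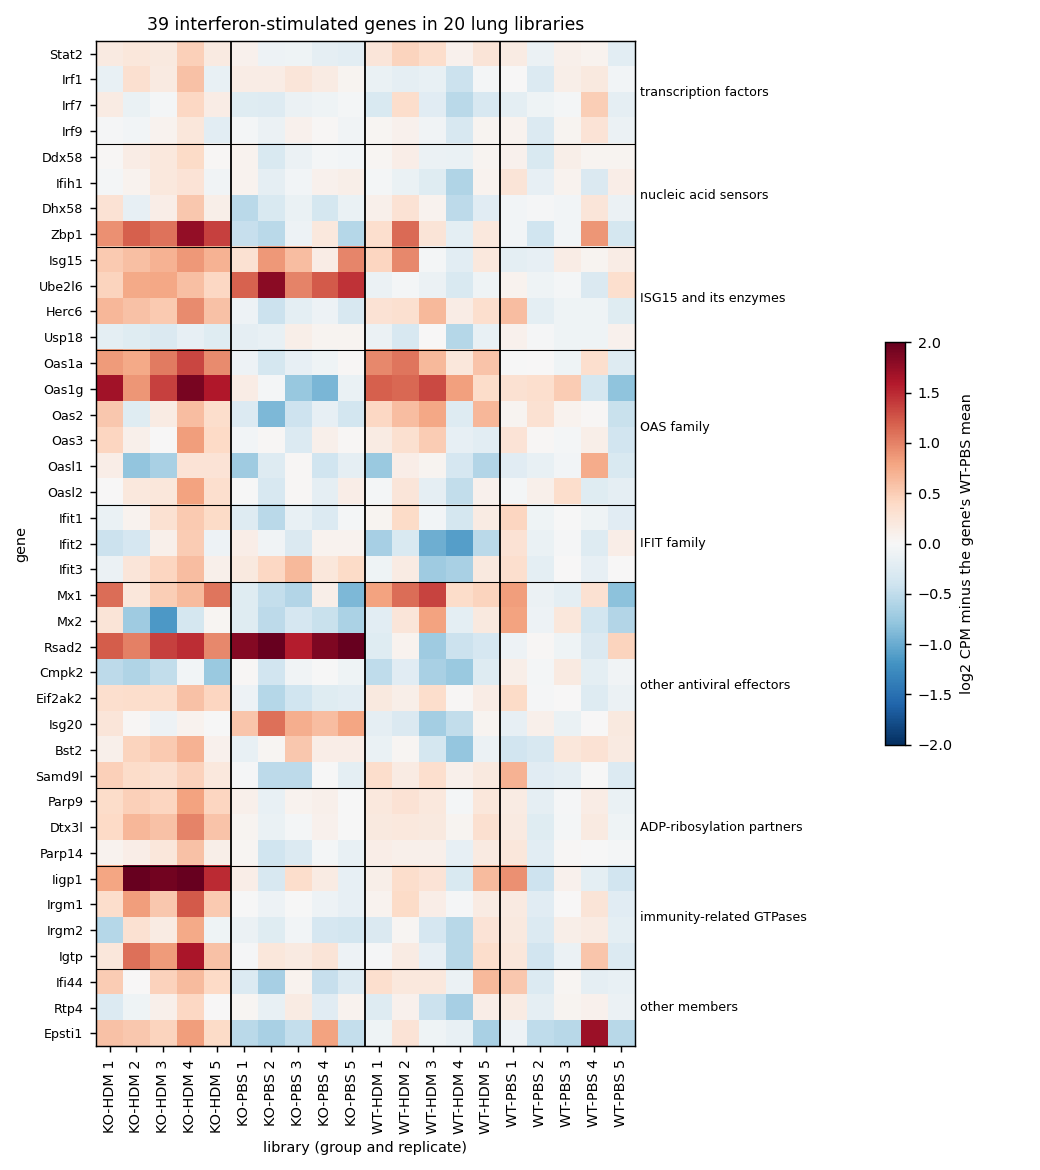
Level of the 39 members (rows, by role) in 20 libraries (columns), as log2 CPM minus the gene's mean in WT-PBS, with the colour scale ending at -2 and 2. KO-HDM libraries are the reddest for Iigp1, Zbp1 and Oas1g, KO-PBS libraries for Rsad2, Ube2l6 and Isg20.

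The first comparison asks what dust mite did in lungs labelled ALOX15 KO. Of the 4 immunity-related GTPases 3 rose, of the 6 genes of the OAS family 5 rose and so did the nucleic acid sensor Zbp1, whereas Rsad2, Ube2l6, Isg20 and Cmpk2 fell. At an adjusted p under 0.05 in edgeR's quasi-likelihood test, 25 of 39 members (64.1%) were called, 21 higher and 4 lower, where 51.9% of all tested genes were called (26.2% higher and 25.7% lower). The median log2 fold change was 0.40 over the members (0.24 without KO-HDM 4) and 0.02 over all tested genes, and 32 members had a positive value. In 16 members all libraries of the groups lay apart, 13 higher and 3 lower, against 22.1% of all tested genes higher and 21.8% lower. In whole lung, more cells of a type and more RNA per cell cannot be told apart.

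Among the immunity-related GTPases, which attack the vacuoles of intracellular parasites in mice, Iigp1 rose the most. Its level was 94.1, 238, 209, 358 and 154 CPM in KO-HDM, against 60.2, 43.6, 69.7, 61.6 and 48.7 CPM in KO-PBS. All KO-HDM libraries were above all KO-PBS libraries, with KO-HDM 4 highest and KO-HDM 1 lowest of the dust mite lungs, and the log2 fold change was 1.89 ± 0.31 (SE; edgeR adjusted p = 5.94e-05). Irgm1, which regulates the other GTPases and autophagy, had 63.3, 89.1, 72.7, 117 and 71.8 CPM in KO-HDM, against 49.3, 46.3, 49.3, 46.5 and 44.3 CPM in KO-PBS (0.81 ± 0.14, adjusted p = 6.74e-05). Again no library overlapped. Igtp, another regulator of this family, had 38.6, 70.9, 59.3, 103 and 49.4 CPM in KO-HDM and 32.5, 38.7, 37.5, 39.2 and 30.6 CPM in KO-PBS (0.85 ± 0.23, adjusted p = 0.00423). Only KO-HDM 1 lay within the KO-PBS range. Irgm2 ran from 58.5 to 147 CPM in KO-HDM and from 67.3 to 83.3 CPM in KO-PBS and was not called (0.40 ± 0.19, adjusted p = 0.0856). In all 4 GTPases KO-HDM 4 was the highest and KO-HDM 1 the lowest library of the group.

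In the OAS family, whose enzymes make the short oligoadenylates that switch on RNase L, 5 of 6 members rose. Oas1g had 5.28, 3.02, 4.23, 6.12 and 4.96 CPM in KO-HDM, against 1.82, 1.60, 0.968, 0.870 and 1.504 CPM in KO-PBS. The groups did not overlap, and the log2 fold change was 1.80 ± 0.27 (adjusted p = 2.39e-05). Its neighbour Oas1a, with the same core in its promoter, had 17.2, 16.2, 19.7, 24.2 and 18.3 CPM in KO-HDM, against 8.95, 7.47, 8.49, 9.04 and 9.71 CPM in KO-PBS (1.13 ± 0.15, adjusted p = 5.31e-06). These groups did not overlap either. In GENCODE transcripts 57.6% of the 50-base stretches of Oas1a are also found in Oas1g, so the split of reads between both genes is uncertain. Oas2 (0.72), Oas3 (0.42) and Oasl2 (0.41) rose as well, and the OAS-like gene Oasl1 was not called (0.20 ± 0.26). The calls of Oas3 and Oasl2 were lost without KO-HDM 4 and in other alternatives, 7 and 4 of 29, with adjusted p up to 0.187 and 0.195 and log2 fold changes of 0.24 and 0.23 without that library.

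Zbp1, a sensor of Z-form nucleic acid that can start necroptosis, had 18.6, 22.5, 21.1, 33.4 and 25.4 CPM in KO-HDM, against 7.18, 6.81, 9.20, 11.4 and 6.66 CPM in KO-PBS. No library overlapped and the log2 fold change was 1.55 ± 0.26 (adjusted p = 8.02e-05). The RNA helicase sensors moved less: Dhx58 (0.49) and Ddx58, which encodes RIG-I (0.25), rose, and Ifih1 was not called (0.08 ± 0.12). Without KO-HDM 4 neither Dhx58 (0.35, adjusted p = 0.0504) nor Ddx58 (0.15, adjusted p = 0.179) was called. Of the transcription factors, Stat2 rose (0.35 ± 0.09, adjusted p = 0.00243), at 69.9 to 86.3 CPM in KO-HDM and 53.7 to 65.9 CPM in KO-PBS. Irf1, Irf7 and Irf9, which switch on many of the other members, were not called and had log2 fold changes of 0.03 to 0.27.

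Mx1, an antiviral GTPase of the dynamin family, had 9.61, 5.21, 6.23, 6.89 and 9.32 CPM in KO-HDM, against 3.73, 3.19, 2.95, 4.83 and 2.37 CPM in KO-PBS. The groups did not overlap (1.12 ± 0.28, adjusted p = 0.00214). RefSeq lists both Mx1 and Mx2 of the C57BL/6 reference genome as transcribed pseudogenes, so these levels are of transcripts. Herc6, the main ligase that attaches Isg15 to proteins in mice, had 44.2, 42.0, 40.3, 54.1 and 42.2 CPM in KO-HDM, against 26.1, 20.8, 24.3, 26.2 and 22.5 CPM in KO-PBS (0.89 ± 0.14, adjusted p = 3.73e-05). The dust mite lungs were all above the saline lungs. Eif2ak2, the RNA-dependent kinase that stops translation, rose by 0.71, and Samd9l, a restrictor of virus growth, by 0.60 on the log2 scale. The ADP-ribosylation partners Parp9, Dtx3l and Parp14, whose products act on each other and whose genes lie next to each other on chromosome 16, all rose (0.48, 0.66 and 0.40; Parp14 0.26 without KO-HDM 4). Of the remaining members Ifit1 (0.49) and Ifi44 (0.71) rose.

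The 4 members that fell with dust mite in these lungs are 3 that stood high in KO-PBS, described further on, and Cmpk2. Rsad2 had 55.1, 47.5, 60.9, 65.6 and 46.1 CPM in KO-HDM, against 84.4, 139.8, 70.2, 86.3 and 111 CPM in KO-PBS, and fell by 0.84 ± 0.18 on the log2 scale (adjusted p = 0.000617). Ube2l6 had 55.5, 69.1, 69.2, 62.0 and 54.0 CPM in KO-HDM, against 92.3, 142, 80.6, 94.9 and 111 CPM in KO-PBS, and fell by 0.75 ± 0.13 (adjusted p = 0.000117). Isg20 had 26.4, 22.6, 20.6, 23.4 and 22.1 CPM in KO-HDM, against 32.5, 47.5, 36.8, 34.1 and 38.5 CPM in KO-PBS, and fell by 0.72 ± 0.12 (adjusted p = 9.08e-05). In each of these genes all KO-HDM libraries were below all KO-PBS libraries, and KO-PBS 2 was the highest of all 20. Cmpk2, a nucleotide kinase of mitochondria, had 19.1, 18.0, 19.6, 26.5 and 16.3 CPM in KO-HDM, against 27.8, 21.0, 26.2, 27.1 and 25.9 CPM in KO-PBS (-0.37 ± 0.13, adjusted p = 0.0211). KO-HDM 4 lay within the saline range, and the call was lost in 6 of 29 alternatives (adjusted p up to 0.0817). The 14 members that were not called had log2 fold changes between -0.21 (Usp18, the protease that removes Isg15) and 0.72 (Epsti1).

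The second comparison asks the same of lungs labelled Wild Type, where few members differed. Of 39 members 6 (15.4%) were called, 4 higher (Oas1g, Mx1, Oas1a and Stat2) and 2 lower (Ifit2 and Cmpk2), against 30.1% of all tested genes. The median log2 fold change was -0.01 over the members and -0.02 over all tested genes, and 19 members had a positive value. Ifit2 and Cmpk2 were also the only members whose libraries did not overlap, both lower, and 0 were higher, against 5.64% of all tested genes lower and 5.93% higher without overlap.

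Ifit2, whose product binds RNA and slows translation of viral messages, had 29.1, 37.3, 23.5, 21.5 and 31.7 CPM in WT-HDM, against 56.6, 42.3, 45.3, 38.5 and 50.8 CPM in WT-PBS. It fell by 0.71 ± 0.17 on the log2 scale (adjusted p = 0.00416). Cmpk2 had 19.2, 23.3, 17.5, 16.3 and 22.8 CPM in WT-HDM, against 29.8, 26.5, 31.1, 23.9 and 26.2 CPM in WT-PBS, and fell by 0.47 ± 0.13 (adjusted p = 0.00895). In both genes every dust mite lung was below every saline lung. Oas1a had 18.6, 20.2, 14.997, 11.2 and 14.2 CPM in WT-HDM, against 9.52, 9.64, 9.04, 12.1 and 8.01 CPM in WT-PBS (0.71 ± 0.15, adjusted p = 0.00154). Only WT-HDM 4 lay within the saline range. Oas1g had 3.77, 3.65, 4.12, 2.90 and 2.13 CPM in WT-HDM and 2.03, 2.07, 2.34, 1.29 and 0.942 CPM in WT-PBS (0.93 ± 0.27, adjusted p = 0.0142). Mx1 had 7.72, 9.66, 11.3, 5.74 and 6.04 CPM in WT-HDM and 7.87, 4.09, 3.88, 5.48 and 2.50 CPM in WT-PBS (0.77 ± 0.27, adjusted p = 0.0407). WT-HDM 5 overlapped the saline lungs in Oas1g, as did 3 of the WT-HDM libraries in Mx1, all of them below WT-PBS 1. Stat2 had 73.4, 84.5, 79.0, 66.1 and 73.9 CPM in WT-HDM and 69.6, 57.2, 66.2, 64.9 and 53.4 CPM in WT-PBS (0.28 ± 0.09, adjusted p = 0.0221), with WT-HDM 4 in the saline range. Without the 5 libraries rich in Adipoq the call was kept by Oas1a, Ifit2 and Cmpk2, lost by Stat2 (0.25) and Mx1 (0.82, adjusted p = 0.119 for both) and Oas1g (0.90, adjusted p = 0.1), and gained by Oas2 (0.70, adjusted p = 0.0287). Mx1 lost its call in 8 of 29 alternatives in all. WT-PBS 1 was the highest saline lung for 17 of 39 members, and without it 10 members were called, with Herc6, Eif2ak2 and Samd9l higher and Isg20 lower in addition.

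**Figure D2:**
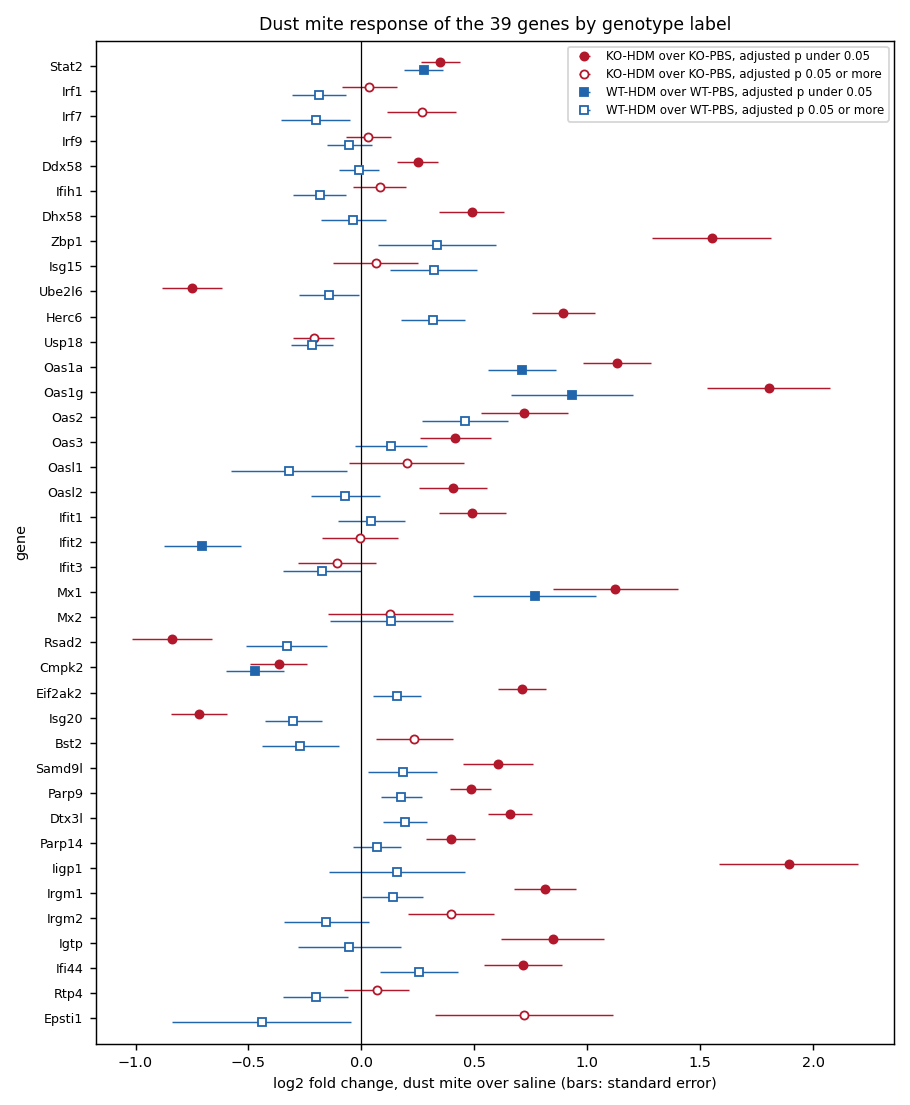
Log2 fold change of dust mite over saline for each member, in libraries labelled ALOX15 KO (red circles) and Wild Type (blue squares), with bars of 1 standard error and filled symbols where the adjusted p was under 0.05. Most red circles lie right of their blue squares, and the Iigp1 pair lies farthest apart, at 1.89 and 0.16.

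Across both comparisons, which have no library in common, Stat2, Oas1a, Oas1g and Mx1 rose in each and Cmpk2 fell in each, and no member was called in opposite directions. The log2 fold change was larger in libraries labelled ALOX15 KO than in those labelled Wild Type for 34 of 39 members (87.2%), where 54.1% of all tested genes had the larger value there. The exceptions were Isg15, Ube2l6, Mx2, Rsad2 and Isg20. Over the 39 members Pearson's r between the log2 fold changes of both comparisons was 0.69. Tested as an interaction of label and dust mite, the difference was called for 0 of 39 members by edgeR, against 1.24% of all tested genes, while 18 members had an unadjusted p under 0.05, against 16% of all tested genes. DESeq2 called 5 members, against 3.77% of the genes it gave an adjusted p, all with a larger response under the KO label: Iigp1, Zbp1, Irgm1, Eif2ak2 and Dtx3l. Iigp1 had the largest interaction, 1.73 ± 0.43 with an edgeR adjusted p of 0.0521, and it was called in 5 of 29 alternatives (adjusted p between 0.00262 and 0.112). Zbp1 (1.22 ± 0.37, adjusted p = 0.109) and Epsti1 (1.16 ± 0.56, adjusted p = 0.319) had the next largest values. A p that misses the threshold does not show that the responses were alike.

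The third comparison sets saline lungs labelled ALOX15 KO against saline lungs labelled Wild Type, and here 3 members stood apart. Rsad2, Ube2l6 and Isg20 were higher in KO-PBS, and no member was called lower: 3 of 39 (7.69%), against 0.908% of all tested genes. The median log2 fold change of the members was -0.09, against -0.03 over all tested genes, and 10 members had a positive value. The libraries of those 3 genes did not overlap, and neither did those of Dhx58, which was lower in KO-PBS but not called (-0.29 ± 0.15, adjusted p = 0.335). Among all tested genes 1.91% were higher and 1.14% lower without overlap.

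Rsad2, or viperin, an enzyme that turns CTP into a nucleotide that ends viral RNA chains, averaged 98.4 ± 27.4 CPM in KO-PBS and 24.1 ± 4.95 CPM in WT-PBS (SD, n = 5 each). The lowest KO-PBS library, at 70.2 CPM, was above all WT-PBS libraries, at 22.1, 24.0, 22.3, 19.4 and 32.4 CPM, and the log2 fold change was 2.03 ± 0.18 (adjusted p = 3.47e-06). Ube2l6, which passes Isg15 to its ligase, ranged from 80.6 to 142 CPM in KO-PBS, above 42.6, 38.4, 39.6, 33.3 and 51.4 CPM in WT-PBS (1.34 ± 0.14, adjusted p = 8.33e-06). Isg20, an RNA exonuclease, ranged from 32.5 to 47.5 CPM in KO-PBS, above 19.9, 23.7, 20.2, 22.3 and 25.4 CPM in WT-PBS (0.76 ± 0.12, adjusted p = 0.00168). These 3 calls were kept in all 29 alternatives, and the log2 fold changes stayed at 1.86 to 2.15, 1.197 to 1.43 and 0.66 to 0.81. Their partners were not called. Cmpk2, the next protein-coding gene to Rsad2 on chromosome 12 with 0 such genes in between, had a log2 fold change of -0.10 ± 0.13 (adjusted p = 0.699). Isg15 itself had 6.41, 9.53, 8.01, 5.78 and 10.2 CPM in KO-PBS and 4.57, 4.66, 5.80, 5.43 and 5.75 CPM in WT-PBS, with 1 KO-PBS library inside the WT-PBS range (0.61 ± 0.19, adjusted p = 0.171). Herc6 and Usp18 had log2 fold changes of -0.26 and -0.01 and were not called.

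Red blood cell genes, like these 3 members, were highest in KO-PBS. The summed level of 6 markers, Hba-a1, Hba-a2, Hbb-bs, Hbb-bt, Alas2 and Slc4a1, was 9424, 19576, 10804, 10710 and 13655 CPM in KO-PBS, against 2869, 2781, 2815, 2500 and 6044 CPM in WT-PBS. All 6 were called higher in KO-PBS over WT-PBS and in KO-HDM over WT-HDM, and all 6 were called lower with dust mite under both labels. Rsad2, Ube2l6 and Isg20 were called lower with dust mite under the KO label only. In WT-HDM over WT-PBS their log2 fold changes were -0.33, -0.145 and -0.30 (edgeR adjusted p = 0.175, 0.443 and 0.0761). Those of the 6 red cell markers ran from -1.19 to -0.72 there. KO-PBS 2, then KO-PBS 5, had the highest red cell sum, and the same libraries in the same order had the highest Rsad2, Ube2l6 and Isg20. WT-PBS 5 had the highest red cell sum of the Wild Type saline lungs and the highest level of those 3 genes there. Under dust mite the red cell sums were 3469, 4876, 3700, 2840 and 2950 CPM in KO-HDM and 2000, 1738, 1225, 1568 and 1879 CPM in WT-HDM. Here the red cell sum and the 3 members did not all peak in the same library. In KO-HDM the sum was highest in library 2, while Rsad2 and Isg20 were highest in libraries 4 and 1. Ube2l6 was nearly equal in KO-HDM libraries 3 and 2, at 69.2 and 69.1 CPM. In WT-HDM the sum was highest in library 1, but Rsad2 and Ube2l6 were highest in library 2 and Isg20 in library 5. Set side by side, the red cell sums of KO-HDM, made up mostly of Hba-a1, lay within those of WT-PBS. For Hba-a2, Hbb-bt and Alas2 all KO-HDM libraries lay within the WT-PBS range. For Hba-a1 only KO-HDM 4 lay outside it, just below, and for Hbb-bs only KO-HDM 2, just above. Slc4a1 was the exception among the 6 markers, at 36.1, 42.0, 43.9, 33.5 and 21.5 CPM in KO-HDM. It was at 7.996, 12.7, 11.3, 9.29 and 21.8 CPM in WT-PBS, so that only KO-HDM 5 lay in the WT-PBS range. Rsad2 (46.1 to 65.6 CPM in KO-HDM) and Ube2l6 (54.0 to 69.2 CPM) were above all WT-PBS libraries and Isg20 (20.6 to 26.4 CPM) overlapped them. The part of red blood cells in these levels was not tested.

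**Figure D3:**
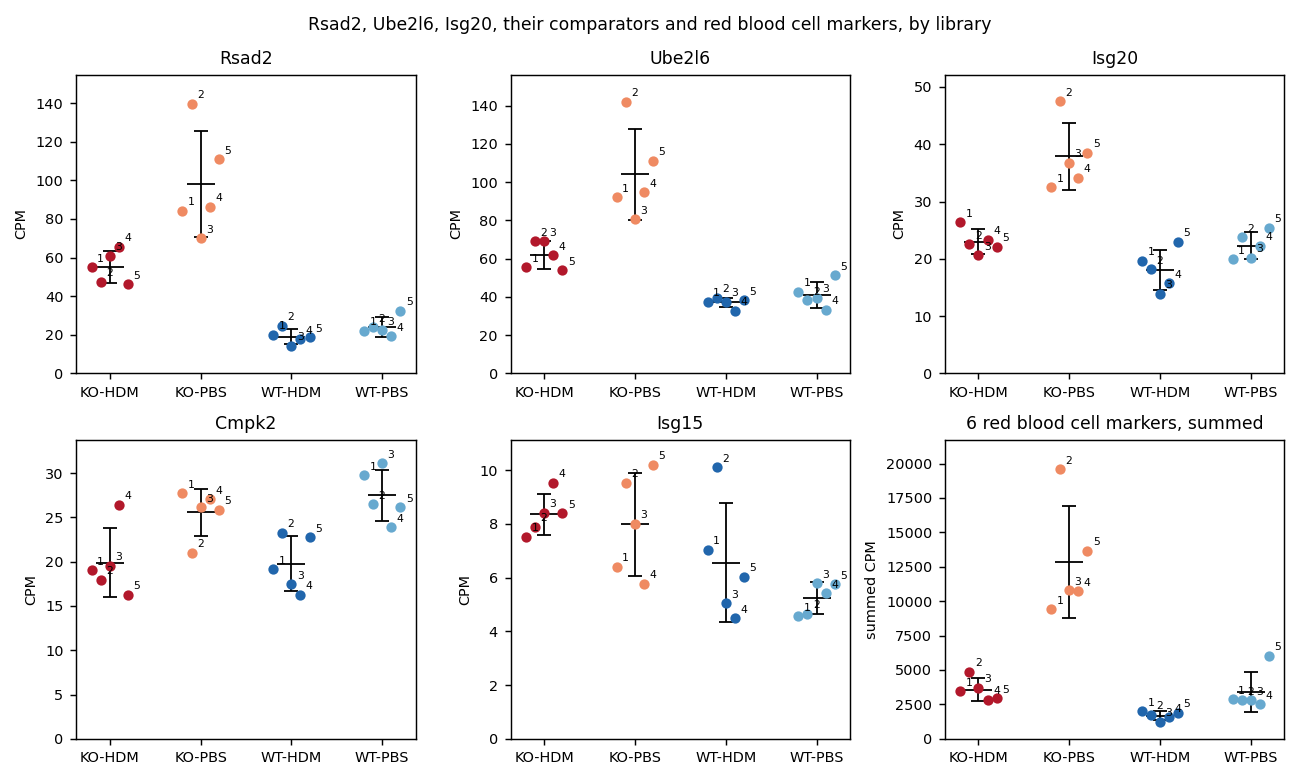
CPM of Rsad2, Ube2l6, Isg20, Cmpk2 and Isg15, and the summed CPM of 6 red blood cell markers, by group, with a point for each library (numbered by replicate), a line at the mean and bars of 1 SD (n = 5). The first 3 genes and the red cell sum are highest in KO-PBS, with replicate 2 on top, whereas the KO-PBS and WT-PBS points overlap in Cmpk2 and Isg15.

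The fourth comparison sets dust mite lungs labelled ALOX15 KO against dust mite lungs labelled Wild Type, the comparison named in the series text. Higher levels in KO-HDM were called for 10 of 39 members (25.6%) and lower levels for 0, against 6.67% of all tested genes (4.79% higher and 1.88% lower; with upper quartile scaling 658 higher and 406 lower in place of 775 and 305). The median log2 fold change was 0.30 over the members and -0.01 over all tested genes, and 34 members had a positive value. The called members were Iigp1 (1.70 ± 0.31), Rsad2 (1.52 ± 0.18), Igtp (0.97 ± 0.23), Zbp1 (0.87 ± 0.26), Ube2l6 (0.74 ± 0.13), Ifit2 (0.68 ± 0.17), Bst2 (0.63 ± 0.17), Irgm1 (0.58 ± 0.14), Dtx3l (0.45 ± 0.10) and Parp9 (0.33 ± 0.09). The libraries of 7 members did not overlap, all higher, against 4.8% of all tested genes higher and 2.21% lower. Epsti1 was among them and was not called (0.68 ± 0.40, adjusted p = 0.349).

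Iigp1 had 94.1, 238, 209, 358 and 154 CPM in KO-HDM, against 59.5, 69.7, 66.4, 44.4 and 84.5 CPM in WT-HDM (adjusted p = 0.00231). All libraries were apart, and the WT-HDM levels lay within the WT-PBS range. Igtp had 38.6 to 103 CPM in KO-HDM, against 32.4, 37.0, 29.5, 22.4 and 42.0 CPM in WT-HDM, and KO-HDM 1 was the only KO-HDM library inside the WT-HDM range (adjusted p = 0.014). Irgm1 had 63.3 to 117 CPM in KO-HDM, against 52.5, 64.8, 54.5, 49.0 and 55.7 CPM in WT-HDM, with KO-HDM 1 again inside the WT-HDM range (adjusted p = 0.0132; 0.0545 in a fit of the 10 libraries compared).

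Rsad2 had 46.1 to 65.6 CPM in KO-HDM, against 20.02, 24.8, 14.5, 17.6 and 18.7 CPM in WT-HDM (adjusted p = 4.98e-05). Ube2l6 had 54.0 to 69.2 CPM in KO-HDM, against 37.6, 39.6, 37.5, 32.9 and 38.3 CPM in WT-HDM (adjusted p = 0.00217). In both genes every KO-HDM library was above every WT-HDM library. These 2 members were thus called higher under the KO label with saline and with dust mite, whereas Isg20 was called with saline only (0.34 ± 0.13 with dust mite, adjusted p = 0.108), and its interaction was not called (-0.42 ± 0.18, adjusted p = 0.246). Ifit2 had 34.3, 36.7, 49.8, 65.5 and 43.1 CPM in KO-HDM, a range that holds all KO-PBS libraries, against the lower WT-HDM values given above (adjusted p = 0.0198). KO-HDM 1 and 2 overlapped WT-HDM. Bst2, or tetherin, which holds budding virus at the cell surface, had 33.2, 41.9, 44.5, 50.2 and 32.7 CPM in KO-HDM, against 28.2, 31.5, 24.2, 18.0 and 28.5 CPM in WT-HDM (adjusted p = 0.0304). These groups did not overlap. Zbp1 had 18.6 to 33.4 CPM in KO-HDM, against 12.5, 21.8, 11.8, 8.58 and 11.5 CPM in WT-HDM, and WT-HDM 2 was above 2 KO-HDM libraries (adjusted p = 0.0492).

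Several of these calls were narrow. Zbp1 was lost in 22 of 29 alternatives (adjusted p between 0.00913 and 0.168), Parp9 in 11 (0.0105 to 0.123), and Bst2 and Ifit2 in 5 each, with adjusted p up to 0.116 and 0.0831. KO-HDM 4 was the highest library of its group for 33 of 39 members and WT-HDM 4 the lowest of its group for 31, and without any 1 of KO-HDM 3, KO-HDM 4, WT-HDM 3 and WT-HDM 4 the count was 6. Iigp1, Igtp, Rsad2, Ube2l6 and Dtx3l were called in all 29 alternatives.

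Ifng, the gene of type II interferon, was counted at 24 reads or fewer in any library and did not pass the filter on low counts. Its level was 0.427, 1.02, 0.875, 1.32 and 0.701 CPM in KO-HDM, against 0.335, 0.188, 0.220, 0.348 and 0.182 CPM in KO-PBS, 0.185, 0.128, 0.233, 0.155 and 0.0990 CPM in WT-HDM and 0.127, 0.104, 0.213, 0.368 and 0.236 CPM in WT-PBS. All KO-HDM libraries were above all 15 others, but KO-HDM 1 (0.427 CPM) only narrowly above WT-PBS 4 (0.368 CPM) and KO-PBS 4 (0.348 CPM). At counts this low the order of these libraries is uncertain. Within KO-HDM, libraries 4 and 1 were the highest and the lowest. In a fit with no filter the log2 fold change was 1.75 ± 0.36 in KO-HDM over KO-PBS (adjusted p = 0.000523) and 2.42 ± 0.40 in KO-HDM over WT-HDM (adjusted p = 0.000889), and the interaction was not called (2.15 ± 0.57, adjusted p = 0.0814).

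**Figure D4:**
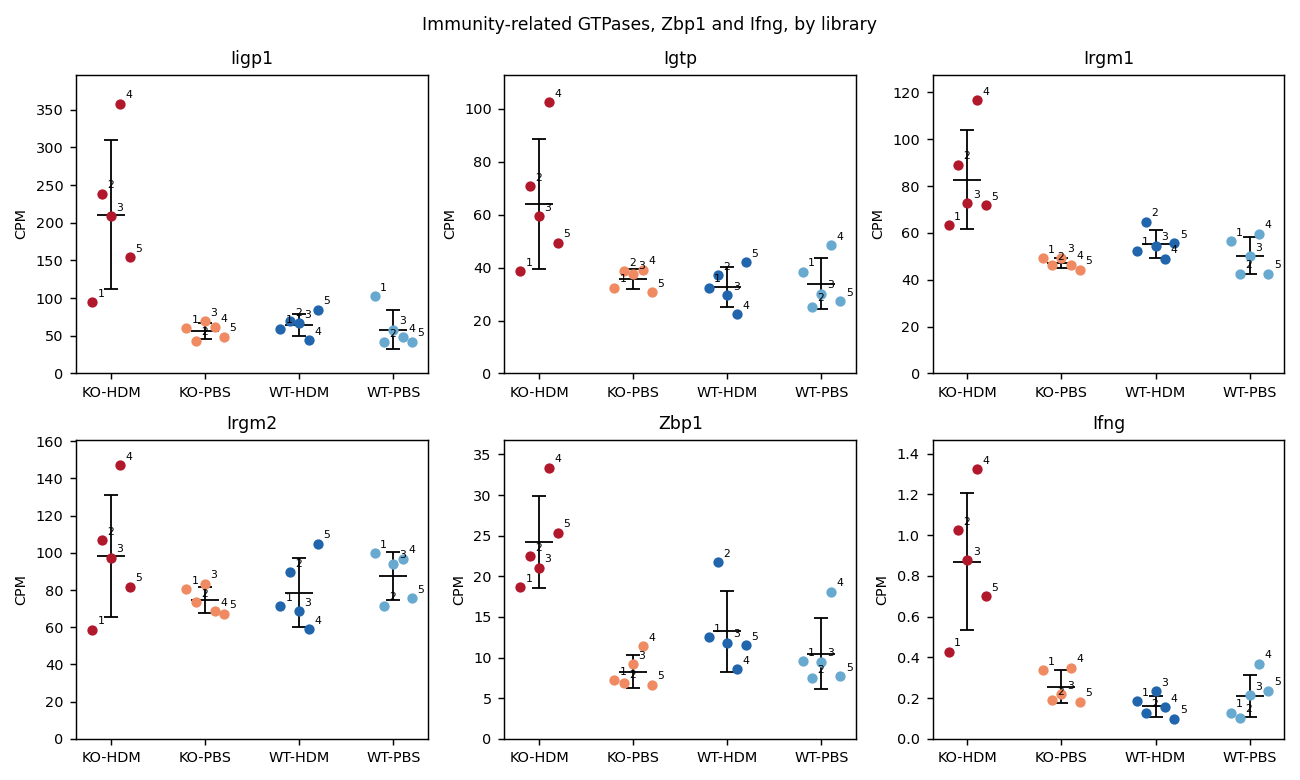
CPM of Iigp1, Igtp, Irgm1, Irgm2, Zbp1 and Ifng by group, with a point for each library (numbered by replicate), a line at the mean and bars of 1 SD (n = 5). In KO-HDM replicate 4 is highest and replicate 1 lowest in each panel, and Iigp1 and Ifng lie above KO-PBS and WT-HDM in all KO-HDM libraries. Ifng rests on 24 counts or fewer per library, and its KO-HDM 1 point lies close to the highest KO-PBS point.

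Markers of several cell types moved in the same libraries. Interstitial macrophage markers, summed over C1qa, C1qb, C1qc and Ms4a7, were at 288 to 564 CPM in KO-HDM, 52.5 to 76.4 CPM in KO-PBS, 148 to 295 CPM in WT-HDM and 46.8 to 134 CPM in WT-PBS. All 4 were called higher with dust mite under both labels, and 3 of 4 in KO-HDM over WT-HDM. Summed T cell markers were at 62.2 to 115 CPM in KO-HDM, 26.7 to 81.1 CPM in KO-PBS, 32.3 to 70.7 CPM in WT-HDM and 23.2 to 217 CPM in WT-PBS, with 2 of 5 called higher in KO-HDM over KO-PBS and 0 in KO-HDM over WT-HDM. Of 5 markers of classical monocytes 3 (Ly6c2, Ccr2 and Vcan) were called higher in KO-HDM over KO-PBS and Ccr2 in KO-HDM over WT-HDM. Of 6 neutrophil markers 4 were called higher in KO-HDM over WT-HDM, and the sums overlapped, at 127 to 318 CPM and 64.5 to 161 CPM. With saline the label difference was present too. The neutrophil sums lay apart there, at 151 to 222 CPM in KO-PBS and 88.8 to 140 CPM in WT-PBS, and 1 of 6 (Retnlg) was called higher. B and plasma cell markers, 7 genes, were at 819 to 1872 CPM in KO-HDM, 59.2 to 189 CPM in KO-PBS, 352 to 989.9 CPM in WT-HDM and 99.4 to 523 CPM in WT-PBS. Of these, 5 of 7 were called higher in KO-HDM over KO-PBS, 4 of 7 in WT-HDM over WT-PBS and 0 between the labels. Markers of some resident lung cells were called lower with dust mite: 5 of 5 of endothelial and 2 of 2 of club cells under both labels, and of type 1 alveolar cells 3 of 3 under the KO label and 2 of 3 under the Wild Type label. Of type 2 alveolar cells 2 of 3 and of ciliated cells 1 of 2 were called lower under the KO label, and 0 of either under the Wild Type label. Of 5 alveolar macrophage markers 2 were called higher under both labels (Plet1 and Mrc1). Lower calls there were 2 under the KO label and 1 under the Wild Type label. Of 5 markers of NK cells, which can make interferon-gamma, 4 were called lower with dust mite under both labels, with sums of 10.5 to 25.0 CPM in KO-HDM, 35.5 to 54.1 CPM in KO-PBS, 17.6 to 24.7 CPM in WT-HDM and 32.4 to 52.0 CPM in WT-PBS. Plasmacytoid dendritic cells, known as strong makers of type I interferon, had 5 markers with summed levels of 12.8 to 42.8 CPM in KO-HDM, 11.8 to 24.2 CPM in KO-PBS, 16.9 to 57.6 CPM in WT-HDM and 15.5 to 40.6 CPM in WT-PBS, and 0 of 5 were called in any comparison. Cox6a2 alone, 1 of these 5, gave 31.5 CPM of the highest KO-HDM sum, in KO-HDM 5, and 42.4 and 34.9 CPM of the highest WT-HDM sums, in WT-HDM 2 and 4, all libraries rich in Adipoq. No list had a marker at 0 in all libraries. The part of these cells in the members' levels was not tested.

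The interferons themselves were scarce. Of 11 ligand genes, Ifna2, Ifna4, Ifna5, Ifnl2 and Ifnl3 had 0 counts in all 20 libraries, while Ifnb1 and Ifna1 had 1 count, Ifne 3 and Ifnab 5 over all libraries, so no difference in them was detectable at this depth. Ifnk, an interferon of epithelial cells, was the only ligand tested with the filter. It was at 2.78, 1.61, 1.31, 2.09 and 2.05 CPM in KO-HDM, all above the KO-PBS values of 1.05, 0.611, 0.924, 1.22 and 0.821 CPM (1.08 ± 0.31, adjusted p = 0.00734). In WT-HDM over WT-PBS it was not called (0.68 ± 0.31, adjusted p = 0.0998), at 3.15, 1.86, 3.42, 2.22 and 2.62 CPM against 2.98, 1.92, 1.65, 0.782 and 0.990 CPM. The mean of Ifnk was highest in WT-HDM, at 2.655 CPM against 1.968 CPM in KO-HDM. Its log2 fold change in KO-HDM over WT-HDM was -0.43 and was not called.

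Of 6 receptor genes, Ifngr2 rose and Ifngr1 fell with dust mite under both labels. Ifngr2 had log2 fold changes of 0.59 ± 0.09 in KO-HDM over KO-PBS and 0.68 ± 0.09 in WT-HDM over WT-PBS (adjusted p = 2.76e-05 and 2.59e-05), and Ifngr1 of -0.29 ± 0.08 and -0.33 ± 0.08 (adjusted p = 0.00709 and 0.00691). Ifnar1, a chain of the type I receptor, rose in KO-HDM over KO-PBS (0.47 ± 0.10, adjusted p = 0.000621) and was not called in WT-HDM over WT-PBS (0.25 ± 0.10, adjusted p = 0.0644). Ifnlr1, the receptor chain of type III interferon, fell in KO-HDM over KO-PBS (-0.45 ± 0.13, adjusted p = 0.00904). None of the 6 was called between the labels under either treatment. Of 5 genes of signal transduction and feedback, 4 rose in KO-HDM over KO-PBS (Jak2, Tyk2, Socs1 and Socs3) and 3 in WT-HDM over WT-PBS (Jak2, Tyk2 and Socs3), and 0 were called between the labels under either treatment.

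Members that neighbour each other on a chromosome were called together in some clusters and not in others. Parp9, Dtx3l and Parp14 were called in the same direction in KO-HDM over KO-PBS, as were Oas1a and Oas1g, whereas in the Ifit2 and Ifit3 pair on chromosome 19 only Ifit2 fell in WT-HDM over WT-PBS (Ifit3 -0.18 ± 0.17, adjusted p = 0.475). In Ifit3 51.2% of the 50-base stretches are shared with Ifit3b, a gene not listed in the table, so its count may hold reads of both. Igtp and Irgm2, neighbours on chromosome 11, share 11.8% of the stretches of Igtp. Shared stretches came to 45.7% in Oas1g, 12.5% in Herc6, 11.6% in Rtp4, 7.77% in Irgm2 and 7.13% in Ifit1, and to 4.38% or less in each of the 31 members not named in this respect.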

How the data were processed

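RNA of whole lung was made into strand-specific libraries with oligo-dT and dUTP marking of the second strand, per the labels' protocols, which also mention removal of ribosomal RNA. The authors deposited RSEM expected counts per gene for all 20 libraries. Per the submitters' processing notes the tools were Bowtie2 2.1.0 and RSEM 1.2.15 and the build named is hg38, a human one, whereas the symbols in the table are those of mouse. Which build lies behind the counts is thus not known here, and the coordinates given belong to RefSeq GRCm38.p6 only. RSEM shares out reads that match several genes by a model, so near-identical genes can exchange counts.

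Expected counts were rounded (82.3% were whole). Genes were kept by edgeR's filterByExpr over the 4 groups, scaled by TMM and tested with robust quasi-likelihood F tests in edgeR 4.0.16 (R 4.3.3), with all 20 libraries in the fit and 16 residual degrees of freedom before moderation. P-values were adjusted by Benjamini-Hochberg over 16193 tested genes of 24054, and called means an adjusted p under 0.05. Standard errors are the log2 fold change divided by the square root of F. The test was also run on simulated counts drawn separately for each gene and library. These hold no effect shared by the genes of a library, so they do not show how the test fares where libraries such as KO-HDM 4 differ as a whole. Alternatives, 29 in all, were RLE and upper quartile scaling, other filters, DESeq2 1.42.0, limma-voom (limma 3.58.1), fits of the compared libraries alone, a replicate block, leaving out libraries with Adipoq at 50 CPM or more, and leaving out each library in turn. The members, their roles, the pathway and marker lists and the tests were chosen with earlier results of these data known. Values per library are given for called members, up to 8 of the largest rises and 8 of the largest falls per comparison, or the 3 largest changes where fewer than 3 were called. Of the pathway lists all members were counted and the called ones named, apart from some genes that are not reported here. Replicate numbers were not used to pair the libraries in the main fit. Of 30 same-numbered pairs 17 deviated together with a correlation over 0.1 (range -0.457 to 0.506), which does not settle whether the numbers pair the libraries. Overlap of sequence was measured as the share of a gene's 50-base stretches found in another gene of GENCODE M21.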

Additional observations from a re-analysis of the deposited data

Results flagged for a closer look

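In 18 of 160 combinations of a gene (the 39 members and Alox15) and a group 1 library lay far from the other 4 of its group by Dixon's test, where chance marks about 1 in 20. The library WT-PBS 4 stood out in 5 members, all of them high. Epsti1 reached 53.4 CPM there, with the next library at 15.2 CPM, Zbp1 reached 18.1 CPM (next 9.52), Irf7 27.5 CPM (next 19.2), Dhx58 12.3 CPM (next 10.3) and Oasl1 5.38 CPM (next 3.08). In KO-PBS 4 Epsti1 reached 28.3 CPM, with the next library at 11.8 CPM. Summed T cell markers were also highest in these libraries of their groups, at 81.1 CPM in KO-PBS 4 (the others 26.7 to 30.0) and 217 CPM in WT-PBS 4 (the others 23.2 to 34.6). The part of T cells in these values was not tested.

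WT-PBS 1 stood out in 4 members: Herc6 at 42.8 CPM (next 26.5), Ifit1 at 28.9 CPM (next 21.4), Samd9l at 222 CPM (next 136) and Iigp1 at 103 CPM (next 57.8). KO-HDM 4 stood out in 4 members, with Stat2 at 86.3 CPM (next 72.3), Herc6 at 54.1 CPM (next 44.2), Parp9 at 94.9 CPM (next 75.8) and Parp14 at 336 CPM (next 263). WT-HDM 2 was high for Irf7, at 25.0 CPM (next 16.7). Low values were those of Parp14 in WT-HDM 4, at 199.5 CPM (next 240.1), Cmpk2 in KO-PBS 2, at 21.0 CPM (next 25.9), and Ddx58 in WT-PBS 2, at 71.9 CPM (next 91.8).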

How the results depend on the processing

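Under the 29 alternatives no member reversed a called direction, and the members called in KO-PBS over WT-PBS stayed 3. With DESeq2 5 members and with a filter of 1 CPM in 5 libraries 1 member had a called interaction, against 0 in the edgeR test. Over all tested genes a fit of the compared libraries alone called 2854 genes in WT-HDM over WT-PBS (4866 with all libraries), DESeq2 called 327 in KO-PBS over WT-PBS (147 by edgeR) and 608 interactions (200 by edgeR), and 103 interactions were called without the libraries rich in Adipoq; the cause was not tested. Leaving out 1 library at a time, members called ranged from 22 to 26 in KO-HDM over KO-PBS, 5 to 10 in WT-HDM over WT-PBS, 3 to 3 in KO-PBS over WT-PBS, 6 to 11 in KO-HDM over WT-HDM and 0 to 1 for the interaction. All genes called then ranged from 7614 to 9017, 3691 to 5896, 102 to 180, 576 to 1396 and 79 to 260 in the same order, and both 576 and 79 came without KO-HDM 4.

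The replicate block gave 26, 7, 3, 8 and 0 members in that order and ended the calls of Zbp1 and Parp9 in KO-HDM over WT-HDM. Whether its numbers pair the libraries is not known: 15 of 60 correlations were best with the own number among 5. Depth limited Ifng, at 24 counts or fewer per library, and the other ligands. Counting error and the spread between 5 libraries a group limit small changes, and tissue other than lung in some libraries was not separated from lung.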

Other observations

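Beyond the 39 members, 26 of 27 further interferon-stimulated genes were tested. In KO-HDM over KO-PBS 8 rose, Ifi205, Nlrc5, Ifi204, Lgals3bp, Trim30a, Ddx60, Phf11b and Sp110, with log2 fold changes of 0.58 to 1.43, and 5 fell, Ifitm3 (-0.67), Tdrd7, Tor3a, Ifi35 and Znfx1, together 50% of the 26 against 51.9% of all tested genes. In WT-HDM over WT-PBS 3 rose (Ifi204 0.69, Ifi205 0.55 and Lgals3bp 0.45) and 3 fell (Znfx1, Tor3a and Tdrd7), 23.1% against 30.1% of all tested genes. Ifi205, a gene of the family of cytosolic DNA sensors, had 16.6, 19.4, 16.2, 20.1 and 17.2 CPM in KO-HDM, against 6.03, 5.97, 6.29, 7.04 and 7.80 CPM in KO-PBS. Nlrc5, the transactivator of MHC class I genes, rose by 1.43 on the log2 scale there. In KO-HDM over WT-HDM Xaf1, Ifi205 (0.68) and Lgals3bp (0.54) were called higher and Helz2 (-0.49) lower, and in KO-PBS over WT-PBS Xaf1 was called higher.

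Xaf1, which promotes cell death and is induced by interferon, differed between the labels under both treatments. It had 55.4, 63.9, 68.2, 74.3 and 56.6 CPM in KO-HDM and 68.3, 59.6, 72.6, 64.8 and 64.6 CPM in KO-PBS, against 15.8, 15.5, 17.1, 11.3 and 14.6 CPM in WT-HDM and 23.5, 15.8, 19.8, 15.9 and 15.7 CPM in WT-PBS. The log2 fold change was 2.103 ± 0.13 in KO-HDM over WT-HDM (edgeR adjusted p = 5.59e-09) and 1.86 ± 0.13 in KO-PBS over WT-PBS (adjusted p = 3.92e-08). All libraries labelled ALOX15 KO were above all libraries labelled Wild Type. In RefSeq GRCm38.p6 Xaf1 lies on chromosome 11, as Alox15 does, with 44 protein-coding genes in between.

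Of 14 genes that sense nucleic acid or carry that signal to the interferon genes, 7 rose and 2 fell in KO-HDM over KO-PBS, and 4 rose in WT-HDM over WT-PBS. These are 64.3% and 28.6% of the 14, against 51.9% and 30.1% of all tested genes. Tlr7, the endosomal receptor of single-stranded RNA, rose by 1.69 in KO-HDM over KO-PBS (adjusted p = 2.41e-07) and by 0.95 in WT-HDM over WT-PBS (adjusted p = 0.000363) on the log2 scale. Tmem173, which encodes STING, rose by 1.28 in KO-HDM over KO-PBS (adjusted p = 0.000245), and Mb21d1, which encodes cGAS, by 1.04. The others that rose were Tlr9, Ikbke, Irf5 and Irf8 in KO-HDM over KO-PBS, and Mb21d1, Ikbke and Irf5 besides Tlr7 in WT-HDM over WT-PBS. The genes that fell were Irf3 (-0.32) and Mavs (-0.24). None of the 14 was called between the labels under either treatment.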
